A study of Homo sapiens with 2 samples.

Results

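First introns of protein-coding genes held 27409 of the 209570 accessible regions that both CAMA-1 replicates shared on the autosomes, at a distance of more than 3 kb from every annotated transcription start site (TSS). This was 13.1% of the shared regions (95% Wilson interval 12.9% to 13.2%). A shared region was a merged stretch of overlapping peaks to which both replicates contributed. It was counted here when its midpoint lay in the first intron of a GENCODE protein-coding transcript and in no exon of any transcript. The rule used position only and no measured strength. CAMA-1 is an epithelial line from a human breast adenocarcinoma, grown as an untreated adherent culture, and accessibility was measured by ATAC-seq in 2 biological replicates of 50000 cells. In ATAC-seq the Tn5 transposase inserts sequencing adapters into DNA that is free of nucleosomes. The study took these profiles as a map of open chromatin in the cells whose cell-free chromatin it simulated. Both replicates form a single condition of 1 long-passaged line, so no groups were compared and no p-value is given, since an exact sign-flip permutation over 2 replicates cannot go below p = 0.5.

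An intron is transcribed and then spliced out, and the first intron follows the first exon, so its beginning lies close to the promoter. First introns are on average the longest of a gene and often hold enhancers, short stretches of DNA where transcription factors bind and act on a promoter at a distance. In luminal breast cells such sites are known to be bound by FOXA1, GATA3, the oestrogen receptor and the AP-2 and GRHL factors. CTCF, in contrast, binds at boundaries and anchors of chromatin loops.

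The central 200 bp of a few first-intron regions are printed below to show what these elements look like as sequence. Each is the strongest region, by mean rank of fold enrichment over both replicates, with a match to the named motif, and AP-1, FOX, AP-2, GRHL, CTCF and the oestrogen response element (ERE) were chosen as the motifs that the comparisons below turn on. All are read from hg38 on the plus strand, 5′ to 3′, and capitals mark the match.
CDH3, CTCF, chr16:68704421-68704620: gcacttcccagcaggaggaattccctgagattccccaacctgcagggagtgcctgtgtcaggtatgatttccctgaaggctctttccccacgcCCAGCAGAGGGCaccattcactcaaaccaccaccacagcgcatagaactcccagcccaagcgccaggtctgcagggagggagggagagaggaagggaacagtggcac
EPB41L4B, AP-1, chr9:109316400-109316599: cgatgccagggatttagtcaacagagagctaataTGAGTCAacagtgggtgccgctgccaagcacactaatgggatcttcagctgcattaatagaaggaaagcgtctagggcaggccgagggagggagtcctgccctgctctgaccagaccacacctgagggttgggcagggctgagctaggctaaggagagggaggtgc
IQCJ-SCHIP1, FOX, chr3:159814326-159814525: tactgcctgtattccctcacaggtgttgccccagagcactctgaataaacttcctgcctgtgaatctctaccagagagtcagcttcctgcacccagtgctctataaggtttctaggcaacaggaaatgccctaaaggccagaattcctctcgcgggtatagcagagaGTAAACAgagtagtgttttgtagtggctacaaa
KCNA2, AP-2, chr1:110612151-110612350: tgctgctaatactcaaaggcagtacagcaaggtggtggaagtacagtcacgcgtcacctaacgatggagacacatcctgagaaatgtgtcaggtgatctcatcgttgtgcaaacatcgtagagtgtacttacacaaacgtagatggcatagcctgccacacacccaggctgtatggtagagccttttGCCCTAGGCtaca
C1orf198, GRHL, chr1:230863536-230863735: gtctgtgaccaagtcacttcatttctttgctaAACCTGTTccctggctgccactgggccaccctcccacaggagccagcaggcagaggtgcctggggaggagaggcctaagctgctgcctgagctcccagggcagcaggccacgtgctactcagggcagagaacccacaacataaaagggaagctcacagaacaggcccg
SIAH2, ERE, chr3:150756622-150756821: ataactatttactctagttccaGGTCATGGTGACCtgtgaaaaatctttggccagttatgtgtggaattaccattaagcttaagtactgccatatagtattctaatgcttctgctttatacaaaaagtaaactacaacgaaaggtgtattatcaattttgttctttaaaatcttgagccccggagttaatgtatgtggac

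The peak caller gave each peak a fold enrichment, the height of its stacked reads over a background that was the same for the whole genome. The region in the first intron of CDH3, which encodes P-cadherin, had a fold enrichment of 133 in replicate 1 and 140 in replicate 2, and its CTCF match reads CCAGCAGAGGGC. The EPB41L4B region reached 167 and 178, the IQCJ-SCHIP1 region 146 and 156, the KCNA2 region 175 and 172, and the C1orf198 region 156 and 169. The ERE of SIAH2, a ubiquitin ligase gene known as an oestrogen target, lay in a weaker region with fold enrichments of 39.8 and 45.6. All 6 regions were thus of like strength in both replicates. They lay between 4.23 kb (KCNA2) and 8.38 kb (CDH3) from the nearest TSS. The CDH3, IQCJ-SCHIP1 and KCNA2 regions were in the first intron of an alternative transcript and not of the canonical one.

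First-intron regions were mostly narrow and of ordinary strength. Their width ranged from 150 to 10644 bp with a median of 352 bp, 6.68% were wider than 1000 bp, and together they covered 12.9 Mb. The median fold enrichment was 8.74 in replicate 1 and 9.29 in replicate 2, which corresponds to median heights of 37 and 41 stacked reads. The lowest region had 11 stacked reads in both replicates, and the highest 1219 and 1247. Regions in later introns, which met the same conditions but lay in the second or a following intron and in no first one, had medians of 8.97 and 9.51. Intergenic regions, outside every annotated gene and 3 to 100 kb from a TSS, had medians of 9.43 and 9.73. Promoter regions, within 1 kb of a TSS, had medians of 16.8 and 17.0. The median of first-intron regions over that of later-intron regions was 0.976 ± 0.00169 (SD, n = 2 replicates). Over that of intergenic regions it was 0.941 ± 0.0196 and over that of promoters 0.533 ± 0.0176. In stacked reads, the medians of first and later introns were 37 and 38 in replicate 1, and 41 and 42 in replicate 2. This gap is the smallest step that heights allow, so the SD of that ratio does not measure its precision. By the median, first-intron regions were therefore slightly weaker than the other distal regions in both replicates. Among the 50000 strongest peaks of each replicate, however, the ratio to later introns was 1.03. The 90th percentiles, 37.3 and 38.5 in replicates 1 and 2, were above those of later introns (36.1 and 37.4). They were below those of intergenic regions (39.1 and 39.8). The 99th percentile in replicate 2 was 103.3, above 97.3 in later introns and 102.6 in intergenic regions. In replicate 1 it was 99.4, above that of later introns but below the 101.5 of intergenic regions. Of the first-intron regions, 113 (0.412%) were among the strongest 1% of autosomal regions in both replicates. The share of all regions that met this in both replicates, at most about 1% by definition, was not computed. The 99th percentiles of all regions, 121 and 124, were above those of first-intron, later-intron and intergenic regions alike.

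First introns differed from later introns more in the number of regions than in their strength. First introns held 87.2 shared regions per Mb of eligible sequence, that is, sequence in which a midpoint could have met the rule (314 Mb). Later introns held 65.1 per Mb of 540 Mb and intergenic sequence 63.6 per Mb of 774 Mb, so that the density in first introns was 1.34 times that in later introns and 1.37 times that in intergenic sequence. With the peaks of each replicate alone, the ratio to later introns was 1.36 in replicate 1 and 1.34 in replicate 2 (mean 1.35 ± 0.0117, SD, n = 2). The ratio to intergenic sequence was 1.39 in replicate 1 and 1.38 in replicate 2. The excess over 1 was thus far larger than the spread between replicates.

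The density was highest near the TSS and its excess over later introns was seen at distances under 50 kb. Between 3 and 5 kb from the nearest TSS, first introns held 114 regions per Mb, later introns 82.6 and intergenic sequence 94.2. At 5 to 10 kb the densities were 102, 76.3 and 85.5, and at 10 to 20 kb they were 91.4, 69.3 and 73.5. The ratio of first to later introns went from 1.38 at 3 to 5 kb to 1.17 at 20 to 50 kb and 1.04 at 50 to 100 kb, and it was 0.859 beyond 100 kb, where only 262 first-intron regions lay. The ratio to intergenic sequence, in contrast, was between 1.20 and 1.28 in all 5 bins up to 100 kb. The strength changed less with distance, with medians of 9.20 and 9.29 in replicates 1 and 2 at 3 to 5 kb and of 8.51 and 9.07 at 20 to 50 kb. At the 3 kb limit itself, the 1672 regions just inside (3000 to 3500 bp) had medians of 8.97 and 9.29, and the 1840 first-intron regions just outside (2500 to 3000 bp) had 8.97 and 8.85.

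**Figure D1:**
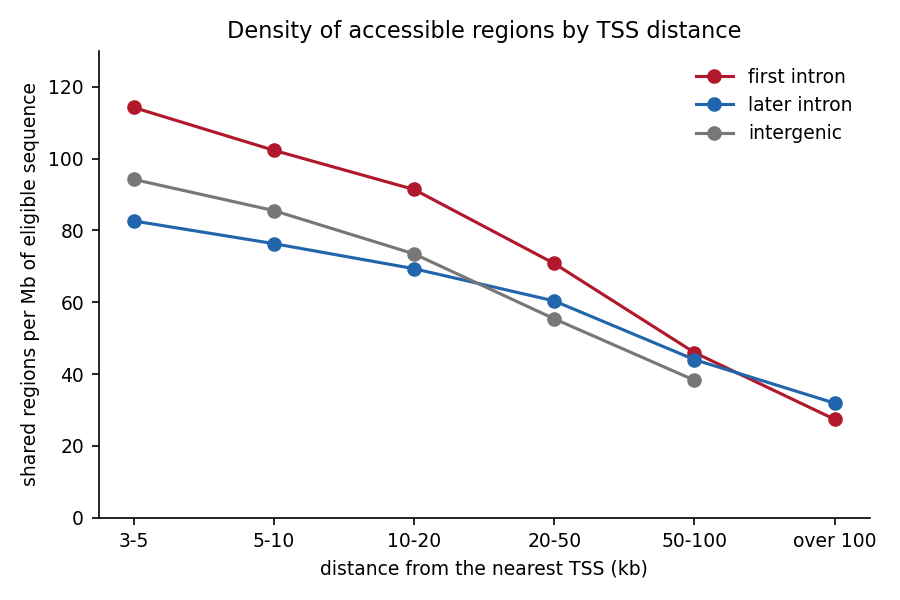
Shared regions per Mb of eligible sequence (y axis) against distance of the midpoint from the nearest TSS in kb (x axis, unequal bins), for first introns, later introns and intergenic sequence, both replicates combined. First introns lie above both other classes up to 50 kb and meet later introns at 50 to 100 kb, where the values are 46.0 and 44.05.

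The order of the introns within a gene showed a graded series. In Ensembl canonical transcripts, taken 1 per gene, the density was 96.0 regions per Mb in intron 1, 78.2 in intron 2, 69.4 in intron 3, 66.3 in intron 4 and 60.8 in intron 5 and later ones. The same order was present within a distance bin. At 10 to 20 kb from the nearest TSS, intron 1 held 101 regions per Mb, intron 2 84.4, intron 3 75.6, intron 4 68.4 and later ones 63.5. The order no longer held at 50 to 100 kb, where intron 1 had 48.3 per Mb, intron 2 51.4 and intron 3 47.9, nor beyond 100 kb, where intron 1 had 27.3 and intron 2 34.5. The median fold enrichment in replicate 1 was 8.74 in intron 1, 9.43 in intron 4 and 8.97 in intron 5 and later ones.

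Within their introns, first-intron regions were spread evenly apart from the ends. The host introns had a median length of 52.7 kb, and the midpoints lay a median of 21.9 kb from the start of the host transcript and 10.1 kb (at most 367 kb) from the nearest TSS of any gene. With each intron divided into 10 equal bins, the bin at its start, much of which the 3 kb limit removes, held 5.16% of the regions, the inner bins between 9.96% and 11.3%, and the bin at its end 8.66%. Of all first-intron regions, 17762 (64.8%) lay in the first intron of a canonical transcript and the others in that of an alternative transcript. For 11117 (40.6%) the midpoint was also in a later intron of another protein-coding transcript. A single gene hosted 27055 regions, and 354 lay in first introns of 2 or more genes.

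The replicates ranked the regions alike. Across the 27409 regions, which share their libraries and are not independent, fold enrichments had a Spearman's ρ of 0.937 and a Pearson's r of 0.988. The value of replicate 2 over that of replicate 1 had a median of 0.04 and an SD of 0.30 on the log2 scale, and 93.8% of regions differed by less than 1.5-fold. The SD was 0.30 for regions with a mean height under 20 stacked reads, 0.35 at 20 to 50, 0.27 at 50 to 100 and 0.18 at 100 or more. Shared regions had at least 11 stacked reads in each replicate. This floor limits the spread under 20, so the lower SD there is not a sign of closer agreement. Of the peaks in first introns of replicate 1, 89.5% overlapped a peak of replicate 2, and 83.8% of those of replicate 2 overlapped a peak of replicate 1. The peaks without a counterpart were weak, with median fold enrichments of 4.37 and 4.201. The values below refer to shared regions, which leave these peaks out, unless they are said to come from the peaks of a replicate alone.

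A difference of more than 2-fold between replicates was found in 79 regions, 53 of which were higher in replicate 2. Among the 11997 regions with a height of at least 50 in either replicate, the 5 largest differences were all towards replicate 2. All 5 reached that height in replicate 2 only, as in GLIS3 with 23 and 64 stacked reads. Heights of first-intron regions were also higher in replicate 2 in general, with medians of 37 and 41. The shared direction is thus not independent of how the regions were selected. The fold enrichment was 5.52 in replicate 1 and 14.4 in replicate 2 in GLIS3, a zinc finger factor, and 7.82 and 19.0 in FHIP1A. In BCL2, which encodes an inhibitor of apoptosis, it was 5.75 and 13.7, in SREBF2, a regulator of cholesterol synthesis, 5.98 and 14.2, and in C9orf85 5.52 and 13.05. With 1 value per replicate, these regions were not tested.

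**Figure D2:**
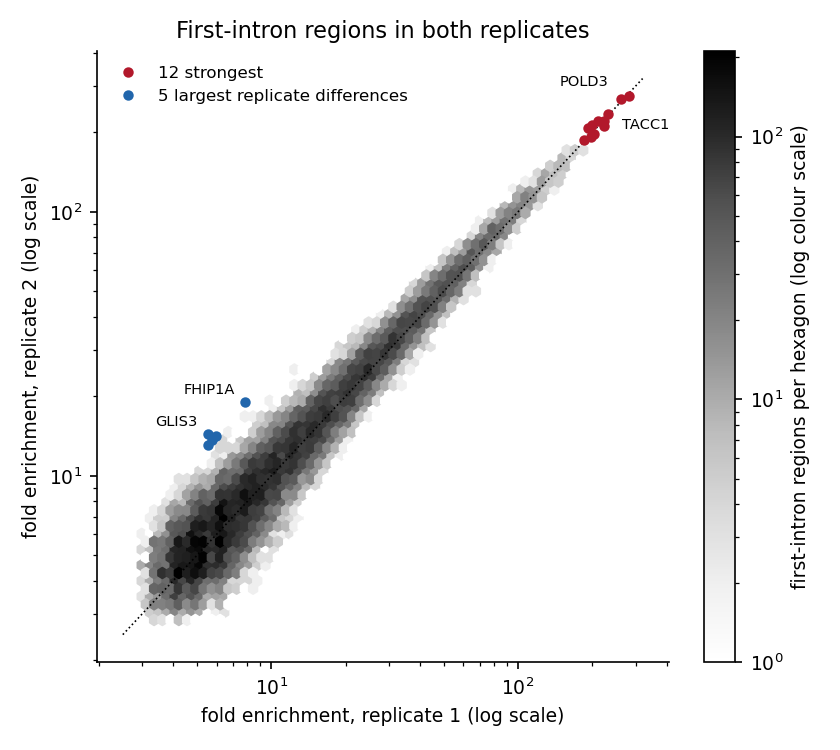
Fold enrichment in replicate 2 (y axis) against replicate 1 (x axis), both on log scales, for the 27409 first-intron regions, with darker hexagons for more regions and the dotted line for equal values. The 12 strongest regions (red) lie along the line at 186 or more in both replicates, and the 5 with the largest differences (blue) lie above it at 5.52 to 7.82 in replicate 1.

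The strongest first-intron regions lay in genes of several functions. The strongest, 4413 bp wide, was in TACC1, which encodes a centrosomal protein, with fold enrichments of 281 in replicate 1 and 276 in replicate 2. The next was in POLD3, a subunit of DNA polymerase delta, with 261 and 268. ARRB1, which encodes beta-arrestin 1, had 233 and 236 in the widest of the 12, at 7461 bp. EIF4EBP1, a repressor of translation, followed with 224 and 222. MYO5C, a myosin of epithelial cells, had 210 and 222, GTF2IRD1, a transcription factor of the TFII-I family, 223 and 212, and GPR161, a receptor of the primary cilium, 200 and 214. TNIP1, an inhibitor of NF-κB signalling, had 204 and 198, and CPT1A, which carries fatty acids into mitochondria, 191 and 209. TMEM217 (199 and 196), TPD52 (197 and 193) and LIMK2, a kinase acting on cofilin (186 and 187), completed the 12. The log2 difference between replicates was between -0.07 and 0.12 in all of them. All 12 were wider than 1 kb, and none was CpG-rich by the criterion given below. Of the 12, 11 lay within 10 kb of a TSS, where the median distance of all first-intron regions was 10.1 kb. The TACC1, POLD3, GPR161 and LIMK2 regions were in the first intron of an alternative transcript and not of the canonical one. In 3 of the 12 the midpoint was in a later intron too.

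Among these 12 regions, 3 were on chromosome 8 (TACC1, EIF4EBP1 and TPD52) and 3 on chromosome 11 (POLD3, ARRB1 and CPT1A). Of all 27409 first-intron regions, 1465 (5.34%) were on chromosome 8 and 1242 on chromosome 11. Of the 12, 7 had more shared regions of any class within 1 Mb than the 90th percentile of all first-intron regions, which was 401 against a median of 212. The numbers were 680 around CPT1A, 547 around EIF4EBP1 and 493 around ARRB1, while MYO5C and TPD52 had 198 and 201. The neighbours of CPT1A had low median fold enrichments, 6.90 and 7.08, and those of LIMK2 the highest of the 12, 12.3 and 13.2. The fold enrichment rests on a single background for the whole genome and is not corrected for the number of gene copies, whose part in these values was not tested.

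In all, 10329 protein-coding genes had first-intron sequence in which a region could lie, and 5780 of them (56.0%, 95% Wilson interval 55.0% to 56.9%) held at least 1. This share is the background for every gene list below. A single region was found in 1789 genes, 2 to 4 in 2186, 5 to 9 in 1076 and 10 or more in 729, and the last group held 46.7% of all pairs of a gene and a region. The number of regions went with the length of eligible sequence (Spearman's ρ of 0.718 across genes, which is a description). The share of genes with a region was 19.6% where that sequence was at most 5 kb and 98.7% where it was over 200 kb. The density went the other way, from 122 to 45.9 regions per Mb. Neighbouring regions in a gene were a median of 3.65 kb apart.

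The 12 genes with the most regions had between 212 and 1058 kb of eligible sequence. RBFOX3, a splicing regulator known as the neuronal marker NeuN, held 80 in 366 kb, and GSE1, a protein of histone deacetylase complexes, 78 in 222 kb. PDE4D, a cAMP phosphodiesterase, held 74 in 1058 kb, and TRPS1, a repressor of the GATA family that luminal breast cells express, 74 in 212 kb. KCNMA1, a calcium-activated potassium channel, followed with 72, IQCJ-SCHIP1 with 63, MAST4 with 62, LPP with 61, NEDD4L with 53, RORA with 51, and HIVEP3 and KCNIP1 with 50 each. Per Mb, GSE1 (351) and TRPS1 (349) were far denser than PDE4D (70.0). In RBFOX3 the fold enrichments ranged from 3.91 to 53.2 with a median of 7.25 in replicate 1, and in NEDD4L, a ubiquitin ligase, from 3.91 to 80.3 with a median of 14.7. Alternative transcripts were common in these genes. In RBFOX3, 69 of the 80 regions, and in NEDD4L 52 of 53, were also in a later intron of another transcript, against 5 of 51 in RORA, a nuclear receptor.

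First-intron regions were more frequent in genes whose own promoter was open. A gene was taken to have an open promoter when a shared region lay within 1 kb of one of its TSSs. The 8610 genes of this kind held 96.4 regions per Mb, and 59.2% of them had at least 1. The 1719 genes without an open promoter held 38.9 per Mb, and 39.7% had at least 1 (95% Wilson intervals 58.2% to 60.2% and 37.4% to 42.1%). The same order was seen at every length of eligible sequence. For 20 to 50 kb the densities were 124 and 49.5 per Mb, and for over 200 kb they were 51.7 and 22.7. Among genes with an open promoter, the density went from 64.2 per Mb in the group with the weakest promoter regions to 92.2, 113 and 137 in the group with the strongest, when they were divided into 4 equal groups by strength. Eligible sequence was shorter in the latter, but with 20 to 50 kb of it the densities were still 92.8, 119, 128 and 155. The share of genes with a region hardly moved over the groups at all lengths, from 58.9% to 60.4%. With 20 to 50 kb of eligible sequence it was 83.7%, 86.8%, 89.2% and 88.1%, from the weakest to the strongest group. The strength of the regions differed little, with medians of 8.74 and 9.29 in genes with an open promoter and 8.51 and 9.07 in the others. Promoters and introns were measured in the same libraries, and the part of gene copies in this relation was not tested.

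The cell type label was checked at the promoters of marker genes, where an open promoter is common: 8610 of the 10329 genes above had one. All 8 luminal epithelial markers (ESR1, GATA3, FOXA1, KRT8, KRT18, KRT19, SPDEF and XBP1) had a shared region within 1 kb of a TSS, with fold enrichments from 31.3 to 140 in replicate 1. Among blood cell markers, ITGAM, CD14 and LCP2 had one (14.7 to 48.3), and PTPRC, CD3E, MS4A1 and SPI1 had none. Of 8 markers of fibroblasts or endothelium, 6 had one (9.20 to 61.0), with none at TWIST2 and PECAM1.

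Luminal breast genes had the densest first introns of the 4 gene lists examined. Of 40 such genes, 23 had eligible first-intron sequence, and 19 of these held a region (82.6%, against 56.0% of all genes). Their median of 29.8 kb of eligible sequence was longer than the 10.3 kb of all genes, and of all genes with 20 to 50 kb 84.2% held a region, so that the share was near that of genes of like length. All 23 had an open promoter. They held 275 regions, or 162 per Mb, and 135 per Mb without TRPS1. The density was 87.1 per Mb over all genes and 114 over genes with 20 to 50 kb. Among the latter it was 124 in genes with an open promoter, and 155 in the group with the strongest promoter regions. In 15 of the 23 genes the density was above 87.1 per Mb, a pooled value that genes with very long introns lower (45.9 per Mb over 200 kb of eligible sequence). The share of all genes above that value was not computed, so this count does not set luminal genes apart. The median fold enrichment was 8.74 and 9.07, close to that of all first-intron regions. The list was chosen with results of these data known, and its counts are a description.

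ESR1, the oestrogen receptor gene, held 16 regions over 234 kb of eligible sequence. Their fold enrichments ranged from 3.45 to 98.0 with a median of 7.13 in replicate 1, and from 3.76 to 101 with a median of 8.62 in replicate 2. The strongest (chr6:151900500-151901882) lay in the first intron of an alternative transcript, 20.5 kb from the start of that transcript. It was also in a later intron of another ESR1 transcript. GREB1, an oestrogen-induced gene, held 25 regions, the strongest of which had 123 and 112. PRLR, the prolactin receptor, held 22, with 121 and 122 at the strongest. In SPDEF, an ETS factor of luminal cells, 1 of 3 regions reached 118 and 113 and spanned 5381 bp. GATA3 differed from these, since its 5 regions were all weak, at 4.83 to 8.97 in replicate 1 and 3.54 to 8.18 in replicate 2. GRHL2 held 19 regions, ERBB4 19, IGF1R 34, BCL2 17, NCOA3 9, KRT8 8, EHF 6, ZNF217 6 and RARA 5. TFF1 and IRS1 held 1 each, NRIP1 2 and INSR 3. Among genes with sequence, GRHL1, ELF5, ERBB2 and RARG held none, although all 4 had an open promoter. GRHL1 had only 0.132 kb of sequence and RARG 1.5 kb.

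Genes of other cell types were not empty. Of 19 basal and mesenchymal genes with sequence, 15 held a region (78.9%), at 83.2 per Mb, beside 87.1 per Mb over all genes. Their median of eligible sequence was 23.6 kb. Of all genes with 20 to 50 kb, 84.2% held a region, at 114 per Mb, so that both values of the list were lower. The highest value was in CDH3 (7 regions, strongest 133 and 140), in the first intron of an alternative transcript and not of the canonical one. TWIST2, a mesenchymal transcription factor with 7 regions and no open promoter, followed with 86.7 and 95.1 at its strongest. TP63, the p63 gene of basal cells, held 17 regions with highest values of 44.6 and 55.5. EGFR held 7 weak ones, of at most 6.21 and 8.62, and had no open promoter by this criterion. Of 20 blood genes, 12 held a region (60%), at 62.4 per Mb. Their median of eligible sequence was 24.1 kb, and both values were again below those of all genes with 20 to 50 kb. The densest blood gene was CSF1R, with 5 regions at 382 per Mb. PAX5, a B cell factor, held 15, VAV1 and PRKCB 8 each, and PTPRC, which encodes CD45, 4 despite the absence of a region at its TSSs. The single region in SPI1, the PU.1 gene, had 34.3 and 31.2. No region was found in CD4, RUNX3, IKZF3, FLI1, ETS1 and ARHGAP15, nor in MS4A1 and LCP2, which had under 3 kb of sequence.

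Neuronal genes with very long introns formed the sparsest list. Of 30 such genes, 29 held a region, or 96.7%, beside 98.7% of all genes with over 200 kb of eligible sequence. Their median was 447 kb. The density was 25.4 per Mb and 21.1 per Mb without KCNMA1. In RBFOX1, which has 1092 kb of sequence, 8 regions were found, in PCDH15 7 and in OPCML 3. GRIK2, with 233 kb, held none. KCNMA1 was the exception, with 196 regions per Mb, the only gene of the list above the value over all genes. AUTS2 came next with 42 regions at 74.0 per Mb. Long genes in general were less dense, with 45.9 per Mb over all genes with more than 200 kb of sequence. KCNMA1 at 196 per Mb and TRPS1 at 349, each with over 200 kb, were far denser.

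**Figure D3:**
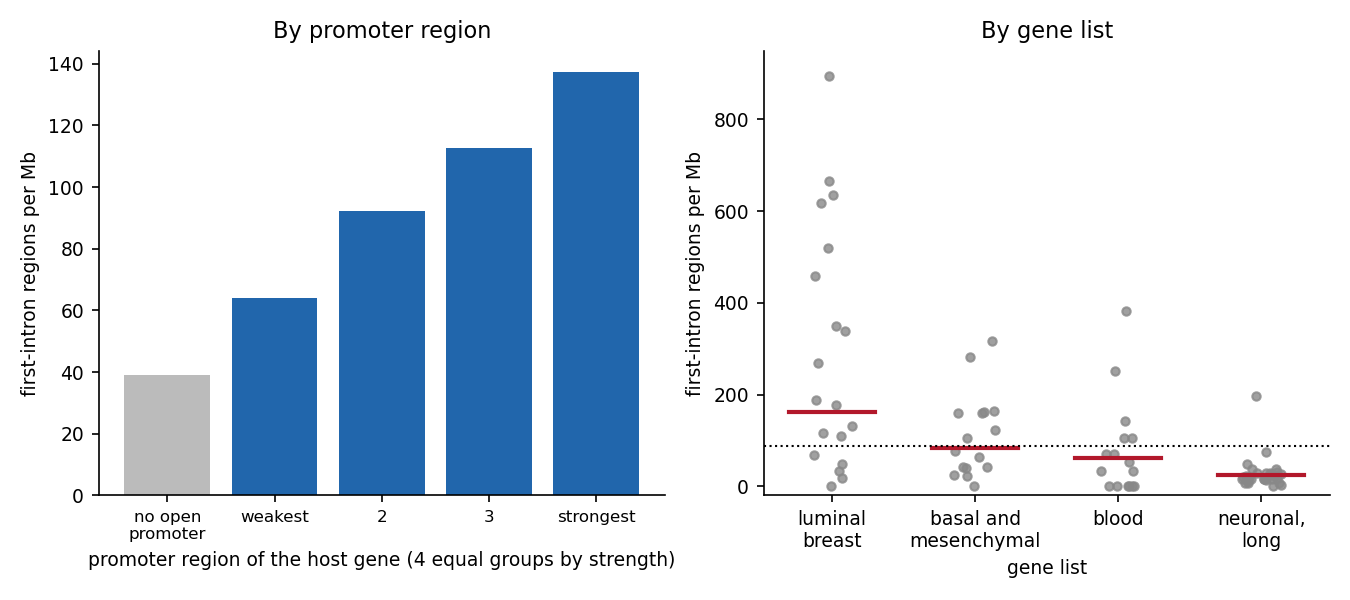
Left, first-intron regions per Mb in genes without an open promoter (grey) and in 4 equal groups of genes by the strength of their promoter region (blue), from 38.9 to 137. Right, regions per Mb in each gene of 4 lists with at least 5 kb of eligible sequence (grey points), with the density over the whole list (red line) and over all 10329 genes (dotted line, 87.1); the luminal list lies above the dotted line at 162 and the neuronal list below it at 25.4.

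In base composition, first-intron regions resembled other distal regions and not promoters. The central 200 bp had a median GC content of 48%, compared with 44.5% in flanks centred 500 bp away, 48.5% in later-intron regions, 49% in intergenic regions and 57.5% in promoters. CpG-rich windows, with more than 50% GC and more than 0.6 of the CpGs expected from the base composition, made up 0.839% of first-intron regions and 32.2% of promoter regions. The 230 CpG-rich first-intron regions were stronger than the rest, with median fold enrichments of 19.3 and 18.8 against 8.74 and 9.07, and wider, at 532 against 351 bp.

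Short motifs of 12 factor families were searched on both strands of the central 200 bp, in the flanks, and in windows of the same length in the other classes. The letters were TGANTCA for AP-1, TGTTTAC for FOX, AGATAA for GATA, GCCNNNGGC for AP-2, AACCNGTT for GRHL, CCGGAAG for ETS, GGAATG for TEAD, TGTGGTT for RUNX and GGGCGGG for SP/KLF. The ERE was GGTCA and TGACC 3 bases apart, NF1 was TTGGC and GCCAA 5 bases apart, and CTCF was its 12-base consensus. A match is a description of the sequence and not evidence of binding. No motif was found in 50.4% of first-intron regions, and 1 in 37.1%. Matches of different motifs seldom overlapped, in at most 4.95% of the regions with the rarer motif, except that 5 of the 18 regions with NF1 had it overlapping AP-2.

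AP-2, FOX, GRHL and AP-1, of which the KCNA2, IQCJ-SCHIP1, C1orf198 and EPB41L4B sequences above are examples, were about 2 times as frequent in the regions as in their flanks. AP-2 was matched in 9.57% of first-intron regions and 4.196% of flanks, a ratio of 2.28. FOX was matched in 6.15% and 2.79% (2.21), GRHL in 2.99% and 1.38% (2.17), and AP-1 in 10.8% and 5.92% (1.83). ETS (1.47), SP/KLF (1.41), RUNX (1.37) and TEAD (1.34) had lower ratios. GATA, an AT-rich motif that was matched in 10.5% of regions and 12.4% of flanks, was the only 1 of the 12 below its flanks, with a ratio of 0.849. The part of the difference in GC content between regions and flanks in these ratios was not tested. The palindromic ERE was rare, with 18 regions (0.0657%) against 0.00547% of flanks. Its ratio of 12 rests on few matches and was 3.27 with flanks centred 1 kb away. The NF1 palindrome was also found in 18 regions.

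Against later-intron regions, most motifs had like shares and CTCF did not. AP-1 was matched in 10.9% of later-intron regions, GRHL in 2.97% and GATA in 10.5%, nearly the same as in first introns. AP-2 was slightly less frequent in first introns, at 9.57% (95% Wilson interval 9.23% to 9.93%) against 10.3% in later introns. FOX was so too, at 6.15% (5.87% to 6.44%) against 6.56%. CTCF was matched in 447 first-intron regions, or 1.63% (95% Wilson interval 1.49% to 1.79%), against 2.70% of later-intron regions, 2.90% of intergenic regions and 2.34% of all autosomal shared regions. The share in first introns was 0.604 times that in later introns. With the peaks of replicate 1 alone, CTCF was matched in 1.53% of peaks in first introns, 2.55% in later introns and 2.73% in intergenic sequence. In replicate 2 the shares were 1.46%, 2.42% and 2.54%, so that the difference between classes was larger than that between replicates. In the flanks of first-intron regions CTCF was matched in 0.0584%, a ratio of 27.9 and the highest of the 12 motifs. SP/KLF was also less frequent in first introns, at 1.99% against 2.47% in intergenic regions and with 0.866 times the share in later introns. These intervals cover counting error only, and no test across regions was made.

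**Figure D4:**
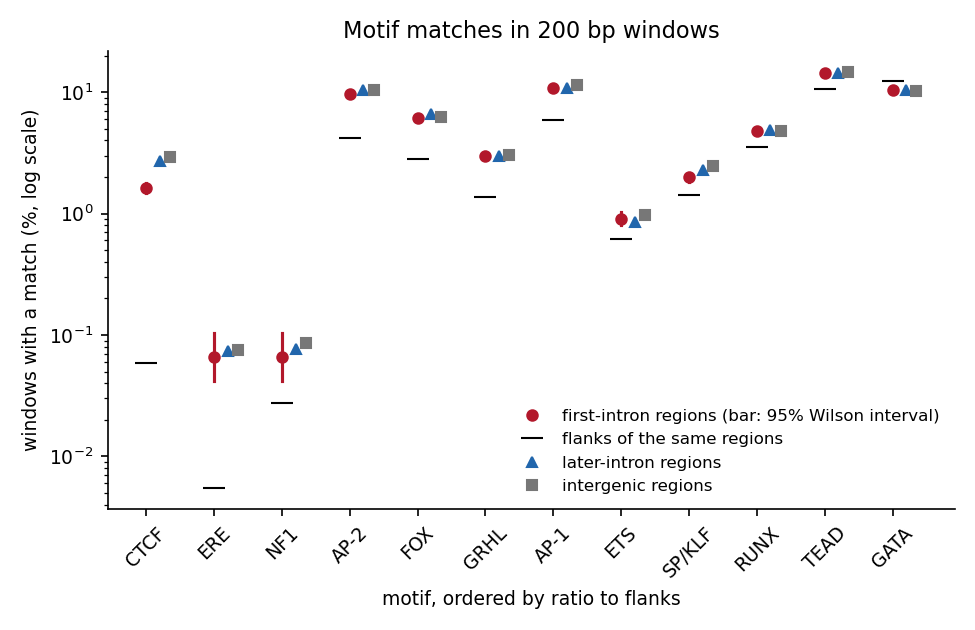
Share of 200 bp windows with a match (y axis, percent on a log scale) for 12 motifs (x axis, ordered by the ratio of first-intron regions to their flanks). Red points with 95% Wilson intervals are first-intron regions, black dashes their flanks, blue triangles later-intron regions and grey squares intergenic regions; CTCF is at 1.63% in first introns and 2.70% and 2.90% in the other classes.

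Of the 12 motifs, CTCF also went with the largest difference in strength. First-intron regions with a CTCF match had median fold enrichments of 15.2 and 14.6, against 8.74 and 9.07 in those without, whereas regions with AP-1 had 9.20 and 9.29. When the regions were ordered by strength and divided into 10 equal bins, CTCF was matched in 2.12% of bin 1, the strongest, 3.17% of bin 2 and 0.255% of bin 10, the weakest. AP-1 was matched in 11.1% of bin 1, 11.2% of bin 9 and 8.76% of bin 10. For FOX these shares were 6.20%, 6.38% and 4.53%. GRHL was matched in 3.28% of bin 1 and 2.01% of bin 10, and AP-2 in 11.9% and 9.67%.

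**Figure D5:**
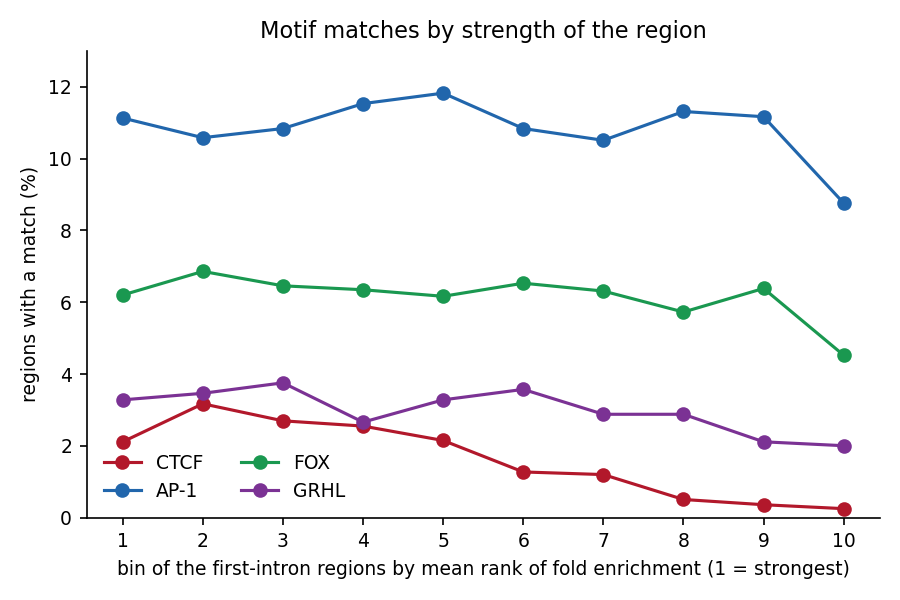
Share of first-intron regions with a CTCF, AP-1, FOX or GRHL match (y axis, percent) in 10 equal bins of the 27409 regions by mean rank of fold enrichment over both replicates (x axis, 1 is the strongest). CTCF goes from 3.17% in bin 2 to 0.255% in bin 10, while AP-1 lies between 8.76% and 11.8%.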

How the data were processed

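ATAC-seq of CAMA-1 cells in 2 biological replicates was analysed. Per the labels, the authors used Trim Galore 0.6.5, Bowtie2 2.3.5.1 and MACS2 2.2.6 with hg38, and called peaks in each replicate separately. The MACS2 settings, the treatment of duplicates and any excluded regions are not given in the sources used here, and a looser threshold would add weak regions. Per peak, the authors deposited a fold enrichment (a ratio to background), a score, a −log10 p-value and a −log10 q-value. The score and the −log10 p were not used. The deposited folds were whole multiples of 0.230 in replicate 1 and 0.221 in replicate 2, to within 7.91e-05 of a step, which gave heights and a background of 3.35 and 3.52 stacked reads. Read counts were not used here.

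Replicate 1 had 239533 and replicate 2 253056 autosomal peaks. Peaks overlapping by at least 1 bp were merged, and a region took the strongest of its peaks in each replicate. Introns, exons and TSSs were those of GENCODE release 44 on hg38, within whose chromosome lengths all peaks lay. Bases other than N that met the rule counted as eligible sequence. Motif windows were 200 bp wide around the midpoint, since the lists hold no summits. The planned share of repeat-masked bases was not computed, because the genome used marks no repeats. Intervals are Wilson intervals at 95% and cover counting error only. Scripts ran in Python 3.11.15 with scipy 1.17.1, numpy 2.4.6 and matplotlib 3.10.9. On simulated peaks of chromosome 21, 6095 of 6095 regions were classed as by direct comparison with each transcript.

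The regions, gene lists and motifs were chosen with earlier results of these data known. The named genes are those of the 12 strongest regions by mean rank, the 12 genes with most regions, the 5 largest replicate differences among regions of height 50 or more, the 4 lists, and those of the printed sequences. The count of neighbours within 1 Mb, the lists without their leading gene, the promoter groups at 20 to 50 kb and the shares within each replicate were chosen after the values were seen. Results were also computed with the 50000 strongest peaks, with peaks of −log10 q at or above 10, a reciprocal overlap of 50%, TSS distances of 1 and 10 kb, canonical transcripts, whole regions inside introns, regions in no later intron, other measures of strength, each replicate left out, and flanks or windows of other sizes for motifs. The other models and assays of the study were not analysed here. The result for 1 marker gene is not reported here.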

Additional observations from a re-analysis of the deposited data

How the results depend on the processing

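First introns were denser than later introns under every alternative. The number of first-intron regions (27409) became 4750 with the 50000 strongest peaks of each replicate, 13868 beyond 10 kb from a TSS, 17762 with canonical transcripts and 16292 without regions in a later intron, and the others were within 1.5 times, with 31441 to 33335 for a single replicate. The density ratio (1.34) was 1.36 with the strongest peaks, 1.40 beyond 1 kb, 1.27 beyond 10 kb and 1.45 with canonical transcripts. It was 1.43 without regions in a later intron, and 1.34 to 1.36 for a single replicate. With whole regions inside the intron it was 1.42. That setting dropped regions crossing intron edges but left the eligible sequence unchanged, so its value is not like for like. The ratio of median fold enrichments (0.976) reversed to 1.03 with the strongest peaks. It was 0.982 at a −log10 q of at least 10, 0.964 beyond 10 kb, without regions in a later intron and with the mean over peaks, 0.960 with −log10 q as the measure, and 0.971 for either replicate. The cause was not tested. Spearman's ρ (0.937) was 0.943 at the stricter q, 0.949 with the strongest peaks, 0.939 at 50% reciprocal overlap and 0.934 beyond 10 kb. The share of genes with a region (56.0%) was 51.2% at the stricter q, 23.4% with the strongest peaks, 55.2% at 50% overlap, 54.6% beyond 1 kb, 62.5% beyond 10 kb, 53.3% with canonical transcripts, 55.1% with whole regions, 53.9% without regions in a later intron, and 58.0% to 59.0% for a single replicate. All 36 motif alternatives were on the same side of 1 as the ratio reported. No paired analysis was possible because there is only 1 group of samples. The lowest regions had heights of 11 stacked reads, and the depth limits which weaker regions could be called.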

Other observations

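The chromosomes differed in how densely their first introns were filled. The density of first-intron regions was lowest on chromosome 18, at 64.8 per Mb, and on chromosome 11, at 67.7, and highest on chromosome 22, at 157, followed by chromosome 19, at 131, and chromosome 16, at 127. Chromosome 5 (109 per Mb) was denser than chromosomes 4 (73.4) and 6 (72.4), and its regions were among the weakest, with median fold enrichments of 8.28 and 8.62. The highest medians, 10.8 in both replicates, were on chromosome 19. The medians of the 22 chromosomes in the replicates had a Pearson's r of 0.880, as a description.

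Motif shares also varied with distance from the TSS. Between 3 and 5 kb, FOX was matched in 5.91% of first-intron regions, AP-1 in 10.2% and SP/KLF in 2.24%. At 50 to 100 kb the shares were 7.14%, 12.1% and 1.63%, and the median GC content was 46.5% compared with 49.5% near the TSS, whose part in these shares was not tested. ETS was matched in 1.18% of the regions at 3 to 5 kb and in 0.688% at 50 to 100 kb. CTCF showed no such order, with 1.69% at 3 to 5 kb, 1.53% at 10 to 20 kb and 2.67% at 50 to 100 kb.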
